A study of Mus musculus with 6 samples.

Results

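The microRNA (miRNA) repertoire of adult pro-B cells was described from 3 Agilent arrays, of 6 in the study. The cells were Fr. B/C of the Hardy scheme, the pro-B stage, when the immunoglobulin heavy chain locus undergoes rearrangement. They came from bone marrow flushed out of the femur and tibia of adult, female BALB/c mice, for which the labels name no treatment and no altered allele. Each of the 3 sorts pooled the marrow of 3 mice and was hybridised to 1 array, so replicate spread covers differences between sorts and arrays, and not between single animals. The study also holds 3 arrays of fetal liver cells of the same fraction, from litters at day 16 of gestation, which were not used here. Members of the repertoire were all 567 miRNAs with a mouse name on the array, measured by 1672 probes. Of these, 134 (23.6 percent) were detected on all 3 arrays, where detected means that more than 50 percent of the spots of the brightest probe were marked as well above background by the scanner software. The levels below are processed signals, which are background-subtracted spot intensities in arbitrary units, and shares, which are the percent of the summed signal of the miRNAs detected on that array. Signal depends on the probe as well as on the number of molecules, so the ranks are ranks of probe signal.

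A miRNA is cut from a hairpin whose 2 arms can each give a mature strand of about the same length. The strand that is kept, the guide, is loaded into an Argonaute protein and pairs with messenger RNAs chiefly through its seed, bases 2 to 8 from the 5′ end, and lowers their stability and translation. The other strand, marked with a star in the older names used on this array, is mostly degraded. MiRNAs with the same seed form a family with overlapping targets. In B cell development, loss of the miR-17-92 cluster blocks the step from pro-B to pre-B cells, and forced expression of miR-34a or miR-150 also hinders that step. The let-7 family restrains growth genes and genes of fetal life such as Hmga2.

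The sequences of the guides that carried most of the signal are shown from RefSeq (GRCm38.p6), 5′ to 3′, with the seed in capitals. The first set holds the 9 members of the let-7 family, the family with the highest summed share.
let-7a: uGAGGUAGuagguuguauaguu
let-7b: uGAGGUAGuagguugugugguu
let-7c: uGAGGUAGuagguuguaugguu
let-7d: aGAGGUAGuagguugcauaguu
let-7e: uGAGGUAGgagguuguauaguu
let-7f: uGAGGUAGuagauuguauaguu
let-7g: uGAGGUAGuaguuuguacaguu
let-7i: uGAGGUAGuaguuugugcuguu
miR-98: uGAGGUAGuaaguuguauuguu

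The second set holds the main products of the miR-17-92 cluster and its paralogs, in 3 seed families. MiR-92a and miR-25 share AUUGCAC, miR-20a, miR-20b, miR-106b and miR-93 share AAAGUGC, and miR-19b and miR-19a share GUGCAAA.
miR-92a: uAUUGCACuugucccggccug
miR-25: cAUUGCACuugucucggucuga
miR-20a: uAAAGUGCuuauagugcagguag
miR-20b: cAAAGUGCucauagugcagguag
miR-106b: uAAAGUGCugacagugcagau
miR-93: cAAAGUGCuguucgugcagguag
miR-19b: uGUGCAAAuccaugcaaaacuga
miR-19a: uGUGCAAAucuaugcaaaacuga

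The third set holds miR-15b, miR-16 and miR-15a, which share the seed AGCAGCA, and other guides among the 30 highest.
miR-15b: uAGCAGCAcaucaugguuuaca
miR-16: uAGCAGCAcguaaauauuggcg
miR-15a: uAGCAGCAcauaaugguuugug
miR-1224: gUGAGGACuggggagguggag
miR-139-5p: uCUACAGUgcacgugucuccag
miR-21: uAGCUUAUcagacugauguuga
miR-23a: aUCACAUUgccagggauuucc
miR-34a: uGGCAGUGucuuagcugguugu
miR-142-3p: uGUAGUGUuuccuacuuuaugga
miR-26a: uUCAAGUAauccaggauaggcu
miR-223: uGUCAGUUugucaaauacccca

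The 3 arrays were close in quality. Between 20.03 and 23.7 percent of the 11340 mouse spots were well above background, no spot was saturated (0 on each array), and the 672 negative control spots had an SD of 2.73 to 3.07. The numbers of detected miRNAs were 160, 160 and 136 on replicates 1, 2 and 3. Replicate 3 thus missed more of the dim miRNAs: of 17 detected on 2 arrays, 15 were missed on replicate 3 and 2 on replicate 2. A further 20 miRNAs were detected on 1 array and 396 (69.8 percent) on 0 arrays. Not being detected bounds a signal only by the dimmest detected miRNA, whose signal was 13.0 on replicate 1, 14.5 on replicate 2 and slightly higher on replicate 3. The brightest miRNA lay 416 to 491 times above that level. Star arms were detected on all 3 arrays in 16 of 114 cases (14.04 percent), and the other miRNAs in 118 of 453 (26.0 percent).

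Signal was concentrated in few miRNAs. MiR-720 and miR-92a together held 26.5 ± 2.11 percent of the signal (mean ± SD, n = 3 arrays, as throughout), the 5 highest miRNAs 41.1 ± 2.09 percent, the 10 highest 56.6 ± 1.76 percent and the 30 highest 82.4 ± 1.12 percent. The share of the 10 highest was 54.7, 56.9 and 58.2 percent on replicates 1, 2 and 3. On replicate 1, 9 miRNAs held 50 percent of the signal, on replicate 2 it took 8 and on replicate 3 it took 7. It took 52, 45 and 44 miRNAs to reach 90 percent. Of the 134, only let-7f, miR-92a and miR-720 had mean shares of 5 percent or more, 20 had 1 to 5 percent, 61 had 0.1 to 1 percent and 50 were below 0.1 percent. The median share was 0.141 percent. With background corrected by normexp with an offset of 50, which adds a constant to every signal, 13 miRNAs were needed for 50 percent.

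**Figure D1:**
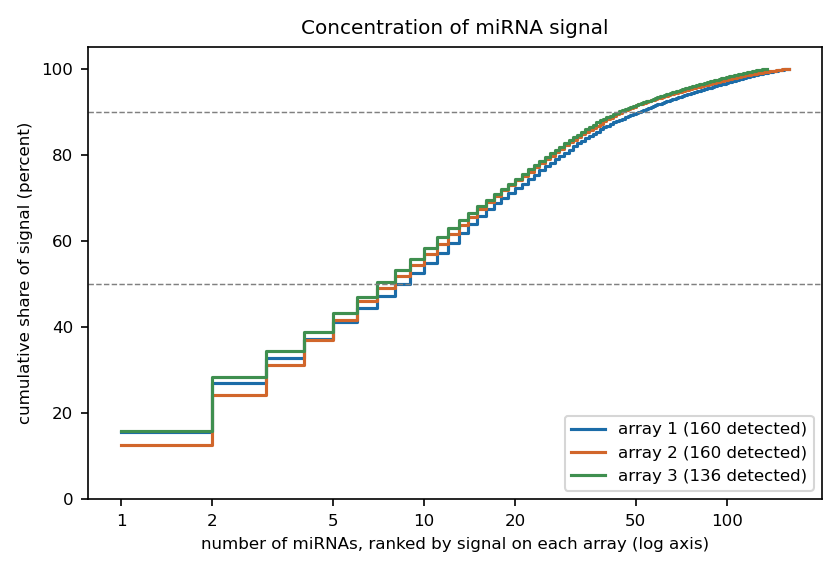
Cumulative share of signal (y axis, percent) against the number of miRNAs, ranked within each array (x axis, log scale), with 1 line for each of the 3 bone marrow arrays and dashed lines at 50 and 90 percent. The 3 lines lie close together and reach 50 percent at 9, 8 and 7 miRNAs.

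The membership of the top was more stable than its order. The 10 highest of each array shared 9 miRNAs: miR-720, miR-92a, let-7f, let-7a, miR-15b, miR-1224, miR-709, miR-139-5p and miR-21. The remaining place was taken by let-7d, miR-19b or miR-23a. Among the 30 highest by mean share there were 29 pairs of neighbours in rank, and only 5 of them had share ranges that did not overlap between the 3 arrays: miR-92a over let-7f, let-7f over let-7a, miR-139-5p over miR-21, miR-21 over let-7d, and let-7b over miR-23b. The order was the same on all 3 arrays for 8 pairs, these 5 and miR-19b over miR-20a, miR-20a over miR-34a and miR-34a over let-7g. For the remaining pairs it changed between arrays. The 30th miRNA, miR-24, had a mean share of 0.701 percent and the 31st, miR-146a, 0.633 percent.

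**Figure D2:**
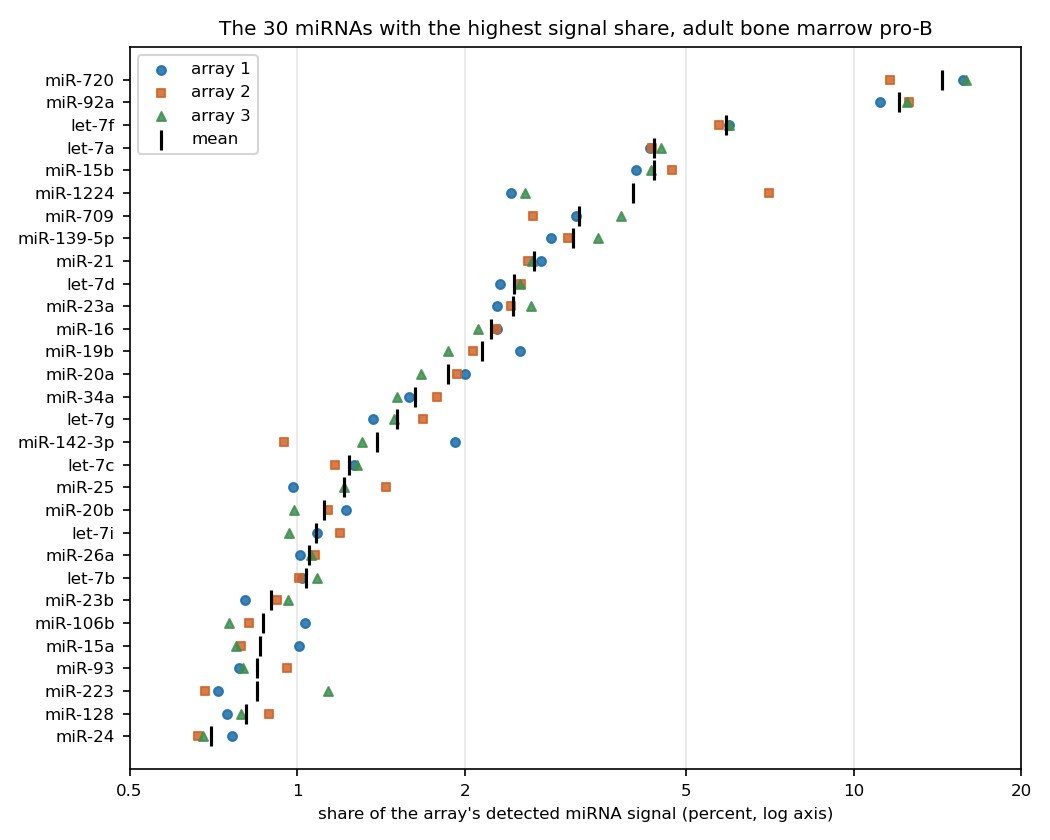
Share of signal (percent, log axis) of the 30 miRNAs with the highest mean share, with 1 point for each of the 3 arrays and a mark at the mean. MiR-1224 and miR-142-3p have the widest spread among these, and miR-720 and miR-92a stand above the rest at 14.4 and 12.1 percent.

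Among the 10 highest were 3 miRNAs with very short probe targets, miR-720, miR-1224 and miR-709. MiR-720, an entry later withdrawn from the miRBase catalogue as a fragment of a transfer RNA, gave signals of 6404, 6538 and 6243. These values are within a narrow range, while its share was 15.7, 11.6 and 15.9 percent. The low share was that of replicate 2, where the summed signal of all detected miRNAs was 56288.6 against 40822.5 and 39226.1 on replicates 1 and 3. MiR-1224, which is spliced rather than cut out of its host transcript (a mirtron), gave 989, 3964 and 1009, or 2.42, 7.04 and 2.57 percent. Replicate 2 alone was high, and without it the mean share was 2.50 percent against 4.01 ± 2.63 percent with it. A mean over all probes of miR-1224 gave 2.61 percent, as did the scanner software's total gene signal (2.61 percent). MiR-709 held 3.17, 2.65 and 3.82 percent. The brightest probes of miR-720, miR-1224 and miR-709 each had a listed target of 12 bases, the shortest length among the 132 detected miRNAs with a listed position, where the median was 18 bases. Over these 132, the length of the target had a Spearman correlation of 0.109 with log2 signal, given as a description only. The part of target length in these 3 signals was not tested.

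MiR-720 and miR-709 belong to a block of consecutively numbered entries, miR-680 to miR-730, of which 10 of 40 were detected on all 3 arrays and 2 on fewer. The part detected on all 3 arrays over all 567 miRNAs was 23.6 percent. Together the numbered entries held 18.8 ± 2.84 percent, nearly all of it from miR-720 and miR-709. The next were miR-714 at 0.374 ± 0.105 percent, miR-690 at 0.247 ± 0.00436 percent and miR-706 at 0.194 ± 0.00811 percent. MiR-689, miR-705, miR-721, miR-715 and miR-702 lay between 0.0435 and 0.130 percent. MiR-702, with signals of 20.5, 20.4 and 17.2, was among the 5 dimmest of the 134. Without miR-720 in the denominator, a setting chosen after seeing the data, the 10 highest miRNAs held 52.1 percent.

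Let-7 was the family with the highest summed share. All 9 guide members were detected on all 3 arrays and together held 17.5, 17.9 and 18.1 percent, or 17.8 ± 0.262 percent. Let-7f led with signals of 2438, 3228 and 2342, which are 5.97, 5.74 and 5.97 percent. Let-7a followed at 4.39 ± 0.111 percent and let-7d at 2.45 ± 0.120 percent. The ranges of these 3 members did not overlap. Let-7g held 1.51 ± 0.158 percent, let-7c 1.24 ± 0.0604 percent, let-7i 1.08 ± 0.114 percent and let-7b 1.04 ± 0.0440 percent, and of these let-7g lay above let-7c without overlap, while the ranges of let-7c and let-7i, and of let-7i and let-7b, overlapped. MiR-98 and let-7e were an order of magnitude dimmer, with signals of 53.2 to 82.4 and of 32.7 to 45.0, or 0.142 and 0.0827 percent. Let-7f alone made up 33.0 percent of the family. Of 7 let-7 star arms on the array, let-7d* at 66.5, 53.0 and 50.8 and let-7b* at 42.9, 34.6 and 25.5 were detected on all 3 arrays, let-7f* on 2 and 4 on none. Let-7d* and let-7b* both had their highest signal on replicate 1, where the signals of their guides, at 945 and 416, were lowest.

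The let-7 members differ from let-7a at few bases, as the printed sequences show. Written as let-7a's base, the position counted from 1 at the 5′ end and the other member's base, let-7f differs by G12A, let-7c by A19G and let-7e by U9G, each the only difference. Let-7b has A17G and A19G, let-7d U1A and U16C, let-7g G12U and U18C, and miR-98 G11A and A19U. Let-7i differs at 4 positions. The dimmest member, let-7e, and the brightest, let-7f, thus each differ from let-7a by 1 base. Hybridisation of a probe to other members of the family was not tested.

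The 4 miRNAs given as markers of these cells, let-7f, let-7a, let-7d and miR-34a, were all detected on every array. They summed to 14.2, 14.4 and 14.5 percent, or 14.4 ± 0.167 percent. This list was chosen with earlier results of these data known, so its detection does not test the identity of the cells. MiR-34a, which represses the transcription factor Foxp1 at the pro-B stage, gave 647, 1002 and 592, ranks 16, 15 and 15 of 567.

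**Figure D3:**
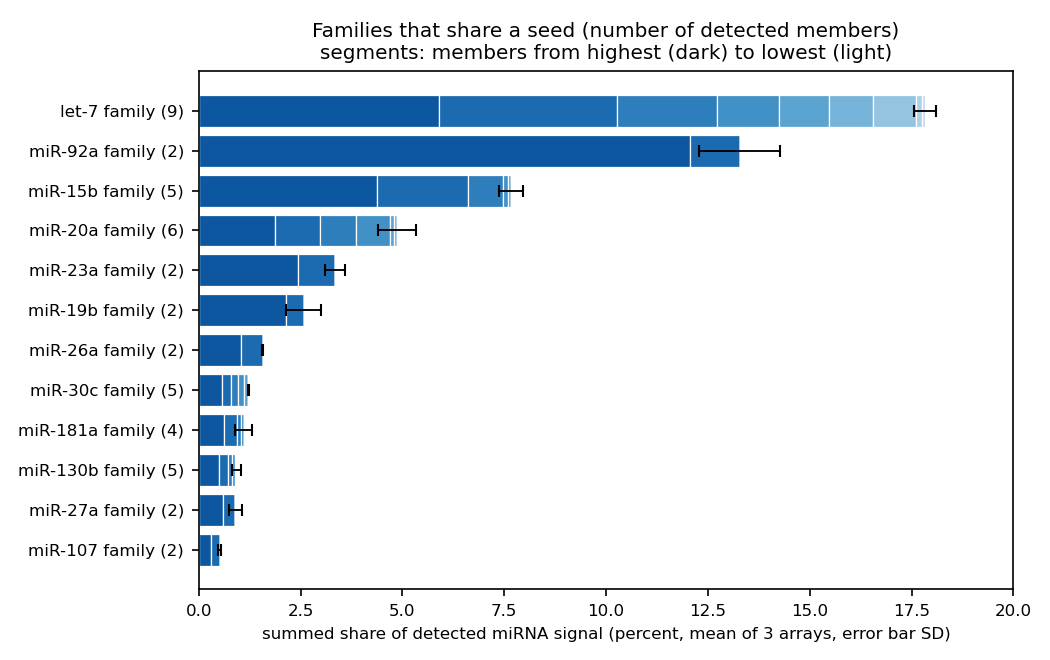
Summed share of signal (x axis, percent, mean of 3 arrays, error bars SD) of the highest seed families with more than 1 detected member, whose number is in brackets. Segments are the members from highest (dark) to lowest (light). The let-7 bar, at 17.8 percent, is built from 7 sizeable members, while miR-92a makes up 90.8 percent of its pair with miR-25.

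Grouping by seed put the 134 miRNAs into 98 families. A miRNA with no matched sequence and no family by name, such as miR-720 or miR-709, counted as a family of 1. The 98 is therefore not a count of distinct seeds. Of the 98, 14 had more than 1 detected member. These 14 families took in 50 miRNAs and 56.4 ± 1.07 percent of the signal. The 5 highest families (let-7, miR-720 alone, miR-92a with miR-25, the miR-15/16 family and the miR-17 family) held 58.1 ± 1.43 percent. Family sums could be steadier than some of their members. The miR-30 family of 5 (seed GUAAACA) held 1.21 ± 0.0131 percent, while miR-30e alone ranged from 0.198 to 0.281 percent. Its member miR-30d, in contrast, ranged only from 0.158 to 0.162 percent. The pair miR-26a and miR-26b summed to 1.57 ± 0.0175 percent, from 1.05 ± 0.0341 and 0.517 ± 0.0352 percent. The median scaled signal of the detected members was 9.14 (log2) for the let-7 guides, 8.60 for the miR-15/16 family, 8.31 for miR-23/24/27, 6.24 for miR-181 and 6.22 for miR-30, against 5.98 over all 134 detected miRNAs.

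The miR-17-92 cluster and its paralogs on chromosomes 5 and X together held 21.2 ± 0.681 percent. Of its 21 arms on the array, 14 were detected on all 3 arrays. MiR-92a, whose targets include the apoptosis gene Bim, gave 4558, 7079 and 4883, or 11.2, 12.6 and 12.4 percent, and was the highest miRNA on replicate 2 and the second on the other arrays. MiR-19b held 2.15 ± 0.331 percent, and miR-20a, of the E2F-targeting miR-17 seed, 1.87 ± 0.177 percent. All 3 kept a rank of 1 to 14 on every array, and the SDs of their scaled log2 signals were 0.12, 0.18 and 0.11. MiR-19a at 0.426 ± 0.114 percent and miR-18a at 0.177 ± 0.0261 percent were lower. MiR-17 itself, with signals of 34.4, 47.6 and 27.7, was at 0.0799 percent. By the brightest probes it lay below its own star arm at 0.115 percent.

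Among the paralogs, miR-25, with the seed of miR-92a, held 1.22 ± 0.230 percent and was highest on replicate 2. MiR-20b at 1.12 ± 0.119 percent, miR-106b at 0.870 ± 0.147 percent and miR-93 at 0.849 ± 0.0968 percent, all have the AAAGUGC seed. MiR-20b lay above miR-93 without overlap, while the ranges of miR-106b overlapped with those of both. MiR-106a was at 0.0854 ± 0.00912 percent. MiR-363, from the X-linked cluster, was detected on replicate 2 only, and miR-18b on 0 arrays.

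In the miR-15/16 family, whose members restrain cell cycle genes and BCL2, 5 of 6 members were detected and held 7.67 ± 0.300 percent. MiR-15b gave 1660, 2658 and 1699, the rank of 5 on all 3 arrays, and a share of 4.37 ± 0.330 percent. MiR-16 held 2.23 ± 0.101 percent and rank 12 on each array. MiR-15a was lower, at 0.859 ± 0.130 percent. MiR-322 and miR-195 were at 0.145 and 0.0673 percent, and miR-497 was not detected.

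Other guides with known roles in lymphocytes spanned a wide range. MiR-21, a repressor of tumour suppressor genes such as Pdcd4, gave 1118, 1463 and 1036, or 2.66 ± 0.0712 percent, and had among the smallest spreads of any miRNA. MiR-155, which supports germinal centre responses, was at 0.398 ± 0.0160 percent, and miR-150, which represses Myb and rises in mature lymphocytes, at 0.170 ± 0.0362 percent. Shares of these 3 miRNAs did not overlap on the arrays. The miR-181 family, which tunes antigen receptor signalling, was detected in 4 of 4 members and summed to 0.867, 1.29 and 1.15 percent. MiR-181a led it with signals of 191, 424 and 262, and replicate 2 was the highest for all 4 members.

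MiR-139-5p, hosted by Pde2a, ranked 7 on every array at 3.13 ± 0.308 percent. The miR-23/24/27 group, from a cluster on each of 2 chromosomes, was detected in 5 of 5 members at 4.95 ± 0.147 percent, led by miR-23a at 2.45 ± 0.173 percent. MiR-23b held 0.897 ± 0.0820, miR-24 0.701 ± 0.0547, miR-27a 0.600 ± 0.146 and miR-27b 0.302 ± 0.0165 percent. MiR-27a had its highest share on replicate 1, and miR-23a its lowest there.

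Smaller families were detected in part. MiR-29a and miR-29b, regulators of collagen and DNA methyltransferase genes, were at 0.274 and 0.0935 percent, and miR-29c was not detected. MiR-221 was detected at 0.109 ± 0.0180 percent and miR-222 was not. MiR-107 and miR-103 held 0.292 ± 0.0216 and 0.229 ± 0.0177 percent. Of the miR-130 and miR-301 family, 4 of 4 members were detected, from miR-130b at 0.504 percent down to miR-301b at 0.0374 percent. MiR-425 was at 0.496 ± 0.00390 percent and miR-191* at 0.120 percent, while the probe of miR-191 itself gave 4.28, 3.74 and 3.21 and was not detected. MiR-125b-5p, miR-99a and miR-125a-5p were detected at 0.169, 0.0825 and 0.0526 percent, and miR-99b and miR-100 were not.

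Markers of the blood lineages were present at different levels. MiR-142-3p, made by all blood cells, gave 785, 533 and 513, or 1.92, 0.946 and 1.31 percent, and its partner miR-142-5p 0.372, 0.161 and 0.213 percent. In share, both arms were highest on replicate 1 and lowest on replicate 2. MiR-223, the main miRNA of myeloid cells, gave 295, 385 and 446, or 0.722, 0.684 and 1.14 percent. Replicate 3 was the highest for it. MiR-146a, which dampens NF-kB signalling in myeloid and lymphoid cells, held 0.724, 0.447 and 0.727 percent. MiR-146b and miR-511 were detected on 1 and 2 arrays, so 2 of 4 myeloid markers were detected throughout, against 23.6 percent of all 567 miRNAs. The list summed to 1.19 to 1.86 percent. The part of myeloid cells in these signals was not tested.

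Of 3 erythroid markers, miR-451 was detected at 169, 143 and 95.8, or 0.304 ± 0.0951 percent, miR-486 was detected on 2 arrays and miR-144 on 0. MiR-451 was highest on replicate 1. The stem, progenitor and endothelial list had 3 of 6 members detected: miR-10a at 0.119, miR-126-3p at 0.0849 and miR-196b at 0.0679 percent. MiR-10a and miR-196b, both hosted in Hox clusters, were highest on replicate 2, with signals of 84.6 and 51.4 there. The hepatocyte marker miR-122 was not detected and had a highest signal of 0.912. None of 5 stromal, 6 epithelial and 6 muscle markers was detected, with highest signals of 8.73, 7.40 and 4.73. The islet marker miR-375 was also not detected. MiR-128, listed as neural, was detected at 0.810 ± 0.0731 percent, while the other 2 neural markers, miR-124 and miR-9, were not. Over all 567 miRNAs, 23.6 percent were detected on all 3 arrays and 69.8 percent on 0 arrays. The presence or absence of these cell types was not tested. In bulk samples, fewer cells of a type and less RNA per cell cannot be told apart.

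Large clusters known from embryonic and placental cells differed in detection. Of 21 miRNAs of the miR-302 cluster and the cluster that starts at miR-290, both active in pluripotent cells, 0 were detected on all 3 arrays and 3 on 1 or 2. Of 70 miRNAs of the Dlk1-Dio3 cluster, 1 was detected on all arrays and 3 on fewer. That member, miR-494, gave 58.9, 268 and 40.2, so replicate 2 was far above the others. The list for the Sfmbt2 gene cluster, made by name, had 10 of 27 members detected on all arrays and 5 on fewer. Over all 567 miRNAs, 23.6 percent were detected on all arrays. The list had a summed share of 0.754 to 1.40 percent, lowest on replicate 2. Of the 10, miR-468 had no listed place in the clusters on chromosome 2 that hold the others.

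Arms of the same hairpin were compared for 174 hairpins with both arms on the array. In 67, at least 1 arm was detected on all 3 arrays, and in 46 of these the lower arm was detected on 0 arrays. Where the lower arm was not detected, a fold is a lower bound. It was set against the higher of the dim arm's own signal and the lowest detected signal of the array. One arm was at least 4-fold above the other on every array in 36 of the 67. With normexp background correction this number was 7.

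The folds that are lower bounds follow the brightness of the higher arm, so they do not show which gap is widest. Unless a range or replicate is named, a fold is the geometric mean over the 3 arrays. A bound applies to that mean. MiR-92a was at least 382-fold over miR-92a* (bounds of 325 to 488 on single arrays). Let-7f was at least 174-fold over let-7f* (bounds of 156 to 217). Among hairpins with both arms measured, miR-15b had the widest gap, 111-fold over miR-15b* (108 to 112 over the arrays). MiR-21 was at least 84.2-fold over miR-21*. MiR-16 was at least 70.5-fold, let-7g at least 47.8-fold and miR-20b at least 35.2-fold over their star arms. MiR-20a was 40.3-fold over miR-20a*. The probes of let-7c-1* and let-7c-2* each bounded let-7c at 39.2-fold or more.

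In 15 hairpins both arms were detected on all arrays, with a median fold of 5.72, and in 13 of them the higher arm was the same on all 3 arrays. The log2 ratio of the arms had a median SD of 0.19. The ratio was steadier than both arms in some hairpins and less steady than both in others. MiR-142-3p over miR-142-5p was 5.17-fold to 6.14-fold, with an SD of 0.13 (log2), while the scaled signals of these arms had SDs of 0.50 and 0.60. For let-7d and let-7d* the ratio had an SD of 0.46, against 0.10 and 0.39 for the arms. For let-7b and let-7b* it was 0.45, against 0.09 and 0.40. Let-7d was 19.5-fold over let-7d* (14.2 to 26.9), let-7b 13.8-fold over let-7b* (9.69 to 16.7) and miR-139-5p 30.6-fold over miR-139-3p. MiR-342-3p, hosted by Evl, was 7.54-fold over its 5p arm.

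Of the 15 hairpins with both arms detected on all arrays, some were close to balanced. MiR-17* was 1.44-fold over miR-17 and miR-140* 1.33-fold over miR-140, on all 3 arrays. These were the only 2 of the 15 in which the arm named with a star was higher. Both orders are those of the brightest probes. A second probe gave 33.1 percent of the brightest for miR-17*, where it was not detected on all arrays, and 80.8 percent for miR-17. It gave 23.6 percent for miR-140* and 70.6 percent for miR-140, so neither order carried over to the second probes. The arms of miR-467b and miR-574 changed order: miR-467b was 2.18-fold over miR-467b* on replicate 2 and 0.966-fold of it at the lowest, and miR-574-5p was 1.89-fold over miR-574-3p on replicate 2 and 0.945-fold of it at the lowest. MiR-467b* and miR-574-3p were both at their lowest on replicate 2. The hairpins of miR-324, miR-296, miR-125a, miR-34b, miR-467e and miR-7a also had small folds, but with a dim arm that was not detected on all arrays, so that these folds are bounds of 1.24 to 1.74.

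**Figure D4:**
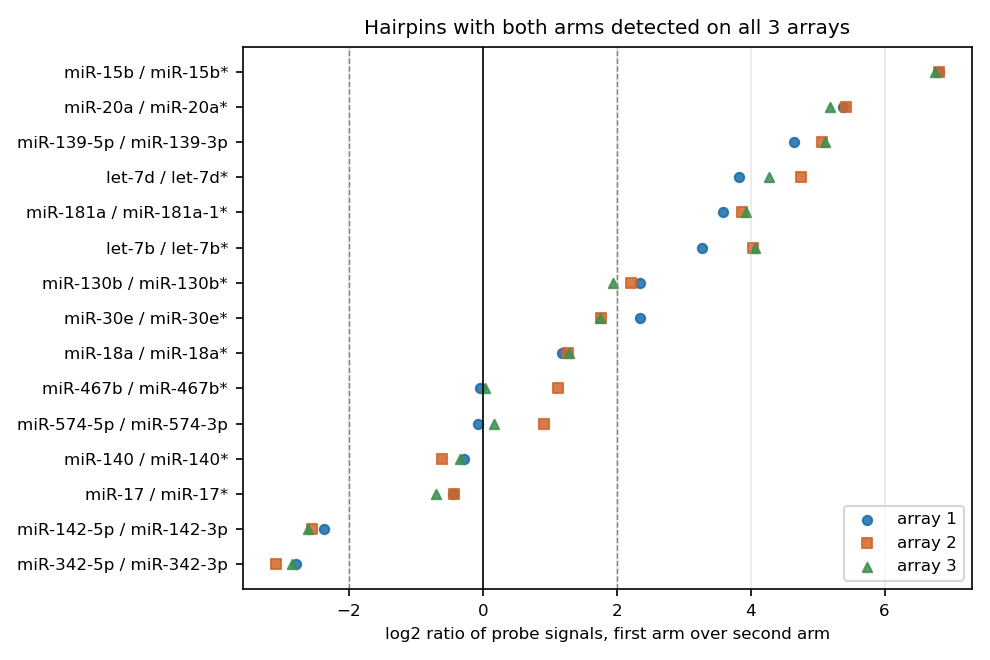
Log2 ratio of the signals of the first named arm over the second (x axis) for the 15 hairpins with both arms detected on all arrays, with 1 point for each of the 3 arrays and dashed lines at 4-fold in either direction. MiR-15b and miR-20a lie far to the right with narrow spread, while miR-17, miR-140, miR-467b and miR-574 lie near equal arms at 0.

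The genomic positions of the probes, in the mm9 coordinates of the array design, placed 65 of 132 detected miRNAs in 23 clusters of neighbours no more than 10 kb apart on the same strand. These clusters held 59.2 percent of the signal. The miR-17-92 cluster, at chr14:115442915-115443718, plus strand, had 9 detected arms and 17.0 ± 0.360 percent. Its members are cut from the same transcript, and the signals of their probes spanned 261-fold in mean share, from miR-20a* at 0.0462 percent to miR-92a. The cluster of let-7a, let-7f and let-7d at chr13:48631393-48633627, minus strand, held 12.9 ± 0.232 percent with let-7d*. MiR-25, miR-93 and miR-106b at chr5:138606560-138607031, minus strand, were within 1.43-fold of each other. MiR-16, miR-26a, miR-92a, miR-19b, miR-24 and several let-7 members also have copies at other loci, and a probe reads all copies together.

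The RefSeq positions of 56 guides and star arms among the brightest were set against gene bounds of the same build, GRCm38.p6, which hold neither exons nor strand. Of the 56, 28 lay within a protein-coding gene. Among them were miR-15b and one copy of miR-16 in Smc4 (miR-15b at chr3:69009775-69009796), miR-25, miR-93 and miR-106b in the replication gene Mcm7, miR-21 in Vmp1, let-7g in Wdr82, miR-139-5p in Pde2a, miR-128 in R3hdm1, one copy of miR-26a in Ctdspl, miR-342-3p in Evl and miR-1224 in Vwa5b2. MiR-92a lay in the noncoding host gene Mir17hg, miR-155 in Mir155hg, miR-15a in Dleu2, and let-7b and let-7c in Lncppara. A further 22, among them let-7a, let-7f, let-7d, miR-34a and miR-142-3p, lay within no gene of the table.

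With arrays divided by the 75th percentile of their detected probes, the SD of log2 signal had a median of 0.16 over the 134 miRNAs, with quartiles of 0.0979 and 0.330. It was under 0.1 for 35 miRNAs and over 0.5 for 17. The brighter 67 miRNAs had a median SD of 0.14 and the dimmer ones 0.17. Pearson's r of log2 signal over the detected miRNAs, which are not independent replicates, was 0.965, 0.986 and 0.978 for the pairs 1 and 2, 1 and 3, and 2 and 3. The median SD depends on the scaling and the background: it was 0.329 with no scaling, 0.340 with the 75th percentile over all mouse probes, and 0.479 with normexp correction.

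The steadiest miRNAs were miR-378, miR-21, miR-17*, miR-16 and miR-361, with SDs of 0.0241 to 0.0378 (log2). They cover a wide range of level, from 2.66 percent for miR-21 to 0.0847 percent for miR-378. The most variable were miR-494 with an SD of 1.15, miR-207 with 0.89, miR-1224 with 0.87, miR-467b* with 0.80 and miR-877* with 0.68. MiR-494 and miR-1224 were high on replicate 2, by 1.31 and 1.00 (log2) above their means. MiR-467b* was low there, by 0.93 below its mean. MiR-207 gave 54.8, 21.4 and 25.6 and was high on replicate 1. MiR-877*, at 44.5, 23.4 and 28.0, was also highest there. The dimmest detected miRNAs, miR-149, miR-301b, miR-324-3p, miR-15b* and miR-702, had signals of 14.6 to 23.7.

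**Figure D5:**
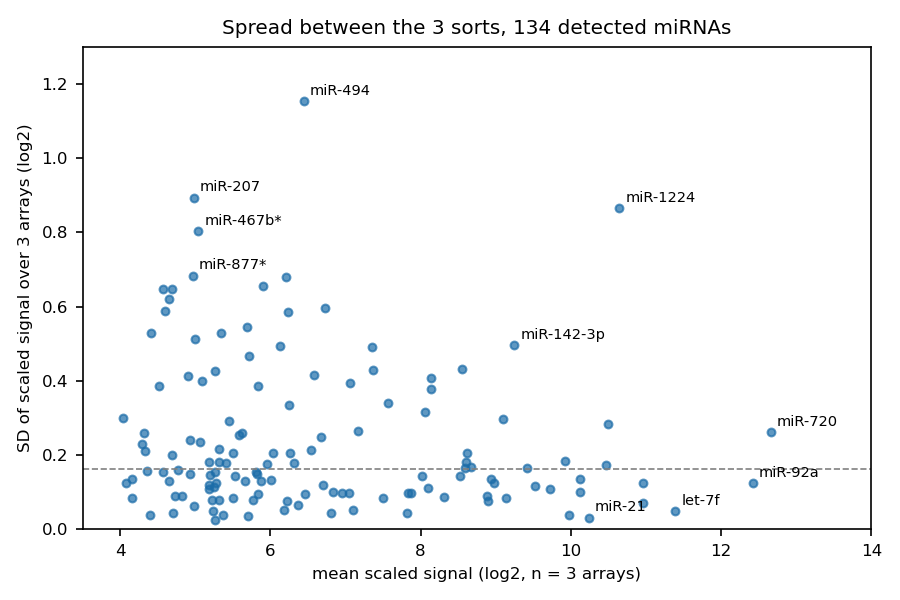
SD over the 3 arrays of log2 scaled signal (y axis) against mean log2 scaled signal (x axis) for the 134 miRNAs detected on all arrays, with a dashed line at the median SD of 0.16. Most points lie under 0.33, and miR-494, miR-207 and miR-1224 stand highest at 1.15, 0.89 and 0.87.

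Replicate 2 was also low for the Sfmbt2 cluster, whose members come from many similar copies, so that their probes may share targets, which was not tested. Low values on replicate 2 were not particular to this cluster. There the scaled signal deviated from its mean by -0.754 (log2) for miR-466g and -0.628 for miR-669c. Outside the cluster it deviated by -0.784 for miR-574-3p, -0.724 for miR-877* and -0.542 for miR-142-5p. MiR-466f-3p gave 91.5, 58.6 and 76.5, miR-466g 73.7, 44.1 and 63.9, and miR-669c 59.0, 41.4 and 54.0. All 3 were lowest on replicate 2 in signal, although that array had the highest summed signal. MiR-467a*, miR-467e* and miR-468, the last listed with the cluster by name only, had the same order. In signal, miR-466e-3p was nearly level, at 43.6, 43.0 and 42.7, and miR-467b and miR-669a were highest on replicate 2, at 46.9 and 40.3. In share these too were lowest on replicate 2. The shares on replicates 1, 2 and 3 were 0.107, 0.0764 and 0.109 percent for miR-466e-3p and 0.0948, 0.0834 and 0.104 percent for miR-467b. For miR-669a they were 0.0872, 0.0716 and 0.0834 percent. All 3 arrays lay on 1 slide with 1 scan time in the file headers, so no split by slide or scan can be made, and the cause of these differences was not tested.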

How the data were processed

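From each sample 100 ng of total RNA was labelled at its ends with Cy3 after removal of phosphates, per the labels' protocols. The deposited scanner tables hold the linear intensity of each of 12493 spots, read with Feature Extraction 9.5.3.1, per the file headers. The main column is the processed signal, already background-subtracted by that software and not normalised between arrays, and the detection calls are its 0 or 1 flags, per the file headers. A second file deposited by the authors gives log2 values per spot, with columns that share 1 distribution (4.66 to 15.79, medians of 5.24). Its normalisation is not given in the sources. Both copies of it were equal in 100 percent of cells. Ranked values of this file and of the scanner signal correlated at 0.963 to 0.970, and it served as an alternative.

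Spots marked as outliers (232 to 257 per array) were left out, and the spots of a probe averaged, 4 to 10 for a brightest probe, with a median coefficient of variation of 6.91 percent. Each miRNA was represented by the probe with the highest mean signal over the 3 arrays. Shares were taken within an array and needed no scaling. For the spread, arrays were divided by their 75th percentile of the 253 probes detected on all 3, with factors of 0.919, 1.24 and 0.842. Array names were matched to RefSeq names by arm and checked for chromosome and strand: 102 of 134 detected miRNAs had a sequence, 96 at the same locus and 6 at another copy. Families were grouped by seed, or by name where no sequence matched. A miRNA with neither counted as a family of 1. Calculations used Python 3.11.15 with pandas 2.3.3 and numpy 2.4.6, normexp came from limma 3.58.1 under R 4.3.3, and figures from matplotlib 3.10.9. The detection count, the shares and the median SD were checked on simulated data. The simulation set the detection flags itself, and arm ratios, seed families and position clusters were not checked.

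No groups were compared and no test was run: values are means and SDs over 3 arrays, whose number limits the precision. No column belonged to an unmapped sample (0). Named were the 30 highest miRNAs by share, all let-7 arms, the arms of the 10 most and 10 least unequal hairpins, the 5 most and 5 least variable and the 5 dimmest detected miRNAs, and detected members, with up to 3 not detected, of lists of clusters, families and cell type markers. Both arms of miR-342, miR-139-3p, miR-801 and miR-652 were named after their values were seen. The members and lists were chosen with earlier results of these data known. Alternatives covered signal column, probe choice, background, outlier spots, detection rule, denominator, scaling, the deposited table and leaving out each array.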

Additional observations from a re-analysis of the deposited data

Results flagged for a closer look

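The array also carries probes for 10 miRNAs of a murine gammaherpesvirus, which were outside the comparisons above. Of these, 9 were detected on 0 arrays and 1, mghv-miR-M1-2, was detected on all 3, with signals of 19.8, 21.7 and 20.5 and a mean of 20.7 ± 0.967 (SD, n = 3). It was flagged as a signal in data outside the mouse miRNAs, above the negative control spots, whose SD was 2.73 to 3.07. This level lay among the dimmest of the detected mouse miRNAs, such as miR-702 with 17.2 to 20.5. The sequence behind this signal was not tested. Groups of 3 arrays are too small for the check of single arrays far from the others.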

How the results depend on the processing

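The count of detected miRNAs was 134, and 122 when every spot had to be well above background or 167 with the scanner software's own gene detection. The 10 highest miRNAs held 56.6 percent of the signal, and 53.4 with the software's total gene signal, 53.3 with the mean over probes, 44.6 with normexp, 54.3 with mean signal minus local background, 52.2 from the authors' deposited table and 52.1 without miR-720. Among the 30 highest of the main setting, at least 9 of the same 10 miRNAs led under each of these settings. Other miRNAs were not ranked, so none of them could enter the 10. Without miR-720, which is 1 of the 10, no more than 9 could be shared. The let-7 guides held 17.8 percent, and under these 6 settings 18.8, 18.8, 14.9, 17.3, 16.5 and 20.8, with 16.9 when outlier spots were kept and 17.5 over all mouse miRNAs. The 5 highest families held 58.1 percent, and 47.6 with normexp, 56.1 with local background, 55.5 with outlier spots, 53.4 from the authors' deposited table and 55.6 without miR-720. With normexp, 13 miRNAs in place of 8 held 50 percent of the signal, the median SD was 0.479 in place of 0.162, and 7 hairpins in place of 36 were unequal by 4-fold. The median SD was also 0.329 with no scaling and 0.340 with the 75th percentile over all mouse probes, and 0.107 to 0.199 under the other settings. The hairpins numbered 24 from the authors' deposited table, 30 with local background, 44 with the software's gene detection and 46 with the total gene signal or the mean over probes. The offset of 50 lies above the signal of many detected miRNAs, and beyond that construction the causes were not tested. Leaving out each array gave 134 to 149 detected miRNAs, 55.8 to 57.5 percent for the 10 highest, 17.7 to 17.97 for let-7, 57.4 to 58.8 for the 5 families, 8 miRNAs for 50 percent, a median SD of 0.121 to 0.183 and 34 to 38 hairpins. Shares of single miRNAs were compared for the 30 highest only, each under each setting. Of these values, 197 moved by less than 1 SD and 102 by more under settings other than leaving out an array. Among these 30, only miR-1224 moved by over 1.5 times, as given above. Dimmer miRNAs were not compared. No paired analysis was possible because 1 group is described and no groups are compared.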

Other observations

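MiR-801, later recognised as a fragment of the U11 small nuclear RNA, gave signals of 112, 294 and 129, or 0.375 ± 0.131 percent, with replicate 2 the highest. MiR-652 and miR-425, neither in a family of more than 1 detected member, had shares of 0.250 ± 0.0125 and 0.496 ± 0.00390 percent, close to equal on the 3 arrays. A second probe for the same miRNA was detected on all arrays for 95 of the 134 miRNAs, and its signal had a median of 45.9 percent of that of the brightest. For miR-720 and miR-709 the second probe gave 16.6 and 13.0 percent of the brightest, for miR-92a 22.9 percent, for let-7f 26.2 percent and for miR-17 80.8 percent. Across the 102 detected miRNAs with a RefSeq sequence, the Spearman correlation of GC content with log2 signal was -0.292, given as a description over miRNAs that share the same 3 arrays.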
